A study of Caenorhabditis elegans with 2 samples.

Results

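The piRNA genes of *Caenorhabditis elegans* chromosome IV make up 14714 of the 46890 genes annotated on the 6 nuclear chromosomes and 14714 of the 19704 genes of chromosome IV itself. They were taken as every gene of biotype piRNA on that chromosome in the Ensembl annotation of assembly WBcel235, a rule that uses no measured value. Each was scored by the interval of highest signal whose summit lay within 250 bp of the gene's start, and the stretches of 250 bp on either side of all the starts, merged where they overlapped, are called the piRNA windows. The measurements came from chromatin immunoprecipitation and sequencing of NHR-111, a nuclear hormone receptor, fused to GFP, with an antibody that recognises GFP. There was 1 group, of 2 biological replicates. Both libraries were made from whole larvae at the L4 stage, 48 h old and of both sexes, which had been held by starvation as L1 larvae after bleaching. The strain was OP569, which carries unc-119(tm4063) and the transgene wgIs569, in which nhr-111 is joined to TY1, EGFP and 3xFLAG beside a rescuing unc-119(+). Every animal therefore carried the transgene, and a library without it, or without the antibody, was not analysed here. Whole larvae mix germ line and soma, and the labels do not say which cells hold the fusion, so that few cells with bound chromatin and little binding per cell cannot be told apart.

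The piRNAs of *C. elegans*, also called 21U-RNAs, are short RNAs of the germ line that begin with uridine and are carried by the Piwi protein PRG-1, with which they help to silence transposons and other foreign sequence. Most are made from separate tiny transcription units of RNA polymerase II, each with a short conserved word upstream of the piRNA, and these units lie in broad clusters on chromosome IV. A complex of PRDE-1, SNPC-4, TOFU-4 and TOFU-5 acts over those clusters, and SNPC-4 is also known as a factor of small nuclear RNA genes and other short non-coding RNA genes.

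The sequences matched what the biotype claims. All 14714 genes were 21 bases long with 14714 distinct sequences, and 14162 of them (96.2%) began with T, the base that becomes the 5′ uridine. The word CTGTTTCA, taken as the upstream core word, lay on the gene's strand in the 60 bases before 5105 of the starts (34.7%), against 11 (0.335%) of the 3281 protein-coding genes of chromosome IV. On the opposite strand the same 60 bases held it before 104 piRNA genes (0.707%) and 7 coding genes (0.213%). With up to 1 mismatch the word preceded 11453 piRNA genes (77.8%) and 200 coding genes (6.10%). The first base of the exact word lay a median of 46 bp before the start, and from the 10th to the 90th percentile it lay 45 to 48 bp before it. Of the genes, 2851 (19.4%) lay in a cluster of 2.60 Mb at chrIV:4800001-7400000, here cluster 1, and 11563 (78.6%) in a cluster of 3.99 Mb at chrIV:13500001-17493829, here cluster 2. The remaining 300 (2.04%) were scattered over the other 10.9 Mb.

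Sequences are shown for the members on which the strongest signals turn, in RefSeq's copy of assembly WBcel235 and 5′ to 3′. The first pair are the only places where a peak of the authors' thresholded list reached a piRNA start. Both are on the forward strand, and the capitals mark the 21 bases of the piRNA and then the tRNA gene that follows it.
21ur-3160 and tRNA gene F02H6.t1, chrIV:14224963-14225178, forward strand: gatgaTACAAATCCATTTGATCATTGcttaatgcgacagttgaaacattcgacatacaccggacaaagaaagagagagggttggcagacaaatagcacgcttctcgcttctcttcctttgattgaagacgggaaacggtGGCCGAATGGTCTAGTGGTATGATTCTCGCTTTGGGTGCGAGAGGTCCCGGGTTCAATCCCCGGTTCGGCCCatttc
21ur-5229 and tRNA gene B0350.t1, chrIV:5967084-5967237, forward strand: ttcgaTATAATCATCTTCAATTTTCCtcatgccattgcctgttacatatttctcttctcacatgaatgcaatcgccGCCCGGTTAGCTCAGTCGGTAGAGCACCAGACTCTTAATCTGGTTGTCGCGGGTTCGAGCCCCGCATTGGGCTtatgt
The next 3 sequences are each the 60 bases before a piRNA and the piRNA itself, shown for the strongest interval nearest to a piRNA start, for a strong interval beside a piRNA gene that lies in a coding exon, and for the highest piRNA score in replicate 1. In these the capitals mark the first base of the piRNA and, where present, the exact core word.
21ur-14537, chrIV:6656804-6656884, forward strand: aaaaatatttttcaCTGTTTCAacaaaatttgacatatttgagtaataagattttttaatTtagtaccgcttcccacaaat
21ur-14659, chrIV:7240636-7240716, reverse strand: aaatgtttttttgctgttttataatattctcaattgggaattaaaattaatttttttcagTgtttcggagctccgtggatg
21ur-3939, chrIV:16382663-16382743, reverse strand: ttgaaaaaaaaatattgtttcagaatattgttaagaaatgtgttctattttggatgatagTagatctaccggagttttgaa
Of these 3 members, 21ur-14537 alone has the exact core word.

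The first question was whether any piRNA gene had a peak of the thresholded list, the 501 peaks that the authors kept for the agreement of their ranks between replicates (the irreproducible discovery rate). Of the 14714 genes, 3 had such a summit within 250 bp (0.0204%, exact 95% interval 0.00420 to 0.0596%), against 1.12% of all genes of the nuclear chromosomes. On chromosome IV the same rule found 11 (0.335%) of the protein-coding genes, 18 (25.4%) of 71 tRNA genes and 10 (16.9%) of 59 snoRNA genes. The 3 piRNA genes were reached by 2 summits, which fell in 3.31 Mb of windows (0.604 per Mb), against 70 in the 14.2 Mb of the rest of the chromosome (4.94 per Mb). The density ratio was 0.122 (exact 95% interval 0.0145 to 0.458), and against the rest of the clusters alone, with 20 summits, it was 0.108 (0.0122 to 0.444). The 501 strongest intervals of replicate 2 alone reached 1 gene, 21ur-5229, at a ratio of 0.0549. Those of replicate 1 alone reached 3 genes, at a ratio of 0.113, and here 21ur-3939 stood in place of 21ur-5229. All intervals given here cover counting error only. They take genes and summits as independent, which neighbouring piRNA genes that share a summit are not. Over 2 libraries an exact two-sided sign test cannot give a p below 0.5, so the spread between the libraries is given in its place.

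Both thresholded summits were nearest to a tRNA start and not to a piRNA start. The summit beside 21ur-3160 stood at chromosome IV position 14225076, 108 bp after that piRNA's start and 26 bp before the start of tRNA gene F02H6.t1. Its signal was 63.1 in replicate 1, 51.6 in replicate 2 and 112.6 in the pooled list, at ranks 209, 860 and 339 of 30000. The same summit scored 21ur-5470 (chrIV:14224943-14224963, reverse strand), whose start it preceded by 113 bp. The summit beside 21ur-5229 stood at position 5967134, 45 bp after that piRNA's start and again 26 bp before a tRNA start, that of B0350.t1. Its signal was 35.5 in replicate 1, 64.2 in replicate 2 and 107.0 in the pooled list, at ranks 3239, 354 and 405. The replicates thus ranked the F02H6.t1 summit high in both lists and the B0350.t1 summit high in replicate 2. None of the 3 genes had the exact core word, and 21ur-5470 begins with C. Neither summit lay in sequence whose 32-base words within 50 bp each occur once in the nuclear genome, and tRNA genes are known to exist in near-identical copies, so that reads there may be shared between copies.

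The count of thresholded summits depended on the limit of 250 bp. In the clusters, 7 thresholded summits lay 251 to 500 bp from the nearest piRNA start (9.09 per Mb, 3.65 to 18.7), a density not below the 4.94 per Mb of the rest of the chromosome. With a reach of 500 bp, 18 piRNA genes had a thresholded summit and the density ratio was 0.450 (0.197 to 0.910). The share over all genes at 500 bp is not given here. Just outside the limit, thresholded summits stood 280 bp from the start of 21ur-3939 (pooled signal 139.1), 286 bp from 21ur-5344 (143.6), 295 bp from 21ur-10291 (162.1) and 300 bp from 21ur-10153 (117.7). Those near 21ur-10291 and 21ur-10153 had these piRNA starts as the nearest start of any gene. The summit near 21ur-5344 lay 51 bp after the start of tRNA gene Y57G11B.t1. That near 21ur-3939 lay 1 bp after the start of the non-coding RNA gene Y7A9D.66. Of the other 3 summits in that range, 2 were nearest to a tRNA start and 1 to a snoRNA start. The peak near 21ur-3939 showed how close to the limit a call can be. In replicate 1 its summit was exactly 250 bp from the piRNA start, which gave this gene the highest piRNA score of that list (69.7, rank 152), and in replicate 2 it was 190 bp away with a signal of 49.8 (rank 1020). The pooled summit, at 280 bp, did not count. In replicate 2 this summit lay 10 bp into tRNA gene Y7A9D.t3, and in replicate 1 it lay 31 bp into the non-coding RNA gene Y7A9D.66. In replicate 2 the highest piRNA score was that of 21ur-5229.

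The full lists, which hold 30000 intervals each and include background, placed intervals at few piRNA genes as well. A pooled summit lay within 250 bp of 484 genes (3.29%, 3.01 to 3.59%), against 15% of all genes. Replicate 1 gave 614 genes (4.17%), against 14.6% of all genes, and replicate 2 gave 617 (4.19%), against 15.1%. Over the replicates the share was 4.18 ± 0.0144% (SD, n = 2) for the piRNA genes of chromosome IV and 14.7 ± 1.08% for its protein-coding genes. It was 9.71 ± 0.371% for pseudogenes, 25.9 ± 0.602% for other non-coding RNA genes, 43.2 ± 3.60% for snoRNA genes and 73.2 ± 0% for tRNA genes of the same chromosome. The 649 piRNA genes of the other chromosomes gave 11.5 ± 0.109%. The piRNA genes of chromosome IV were lowest of these classes in each of the 3 full lists, by more than the spread between replicates.

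**Figure D1:**
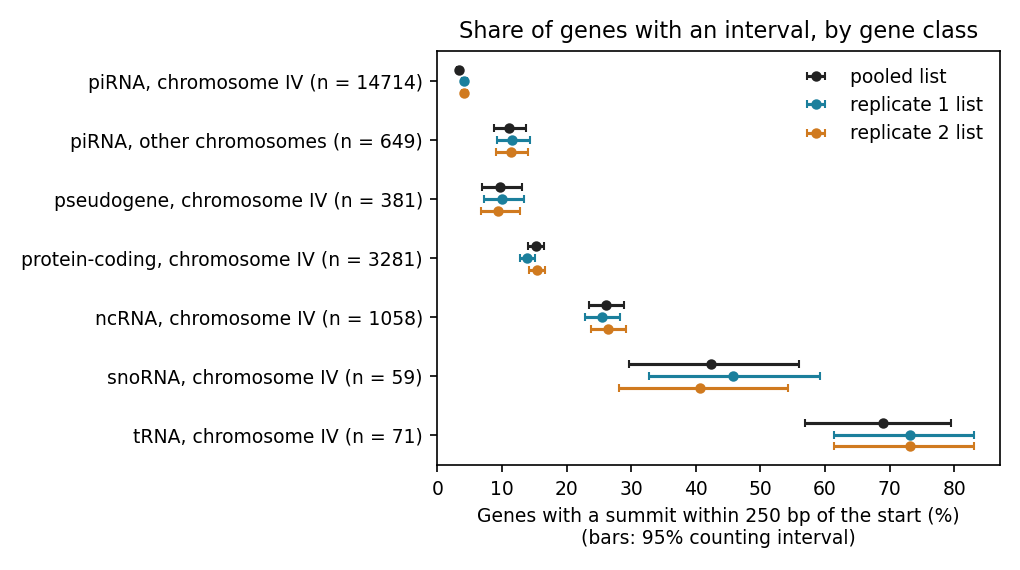
Share of genes of each class with an interval summit within 250 bp of the start, in the pooled list and in each replicate list; points are shares in percent and bars exact 95% binomial intervals. The chromosome IV piRNA genes stood at 3.29 to 4.19% and the tRNA genes at the other end, at 73.2% in each replicate.

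Per length the difference had the same direction. The windows cover 18.9% of chromosome IV and 48.1% of the clusters. They held 356 summits of replicate 1 (107 per Mb) and 376 of replicate 2 (113 per Mb), and the rest of the chromosome held 4290 (303 per Mb) and 4196 (296 per Mb) summits of the same lists. The ratio was 0.369 ± 0.0200 (SD, n = 2), and in the pooled list, with 303 summits in the windows and 4241 in the rest, it was 0.306 (0.271 to 0.344). Against the rest of the clusters it was 0.380 ± 0.00956, so nearby sequence gave almost the same ratio as the whole chromosome. Cluster 1 windows had 0.493 ± 0.0297 of the density of the rest of cluster 1, and cluster 2 windows 0.333 ± 0.00497 of that of the rest of cluster 2. The 300 scattered genes had a ratio of 0.676 ± 0.145 to their surroundings, with intervals that reached 1.10 in replicate 2. Cluster sequence outside the windows was itself close to the rest of the chromosome, at 0.916 ± 0.0185 of the density outside clusters and windows.

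Within 500 bp of a piRNA start the density was lower at each step toward the start. Within the clusters, replicate 1 had 67.9 summits per Mb at 0 to 50 bp from the nearest piRNA start, 95.3 at 51 to 100 bp, 140 at 101 to 250 bp, 241 at 251 to 500 bp, 236 at 501 to 1000 bp, 276 at 1001 to 2000 bp and 317 beyond 2000 bp. Replicate 2 had 61.3, 103, 150, 223, 226, 229 and 347 per Mb over the same distances. The lowest value was at the start itself in both replicates and in the pooled list, where it was 51.9 per Mb from 55 summits. Mean GC content moved with it, with 27.9% at 0 to 50 bp, 32.4% at 101 to 250 bp, 34.6% at 251 to 500 bp and 36.3% beyond 2000 bp.

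**Figure D2:**
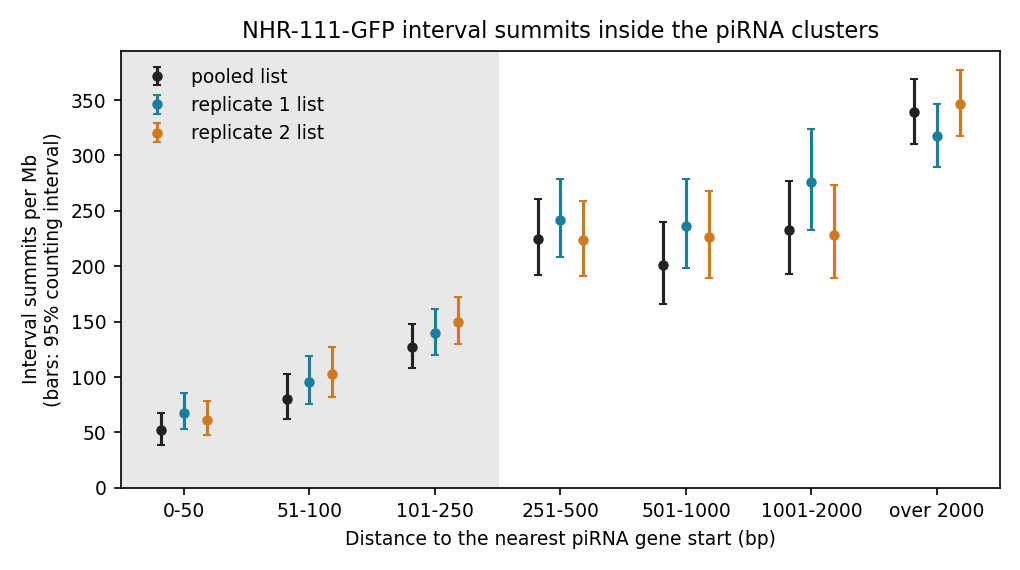
Interval summits per Mb inside the 2 piRNA clusters by distance to the nearest piRNA start, for the pooled list and both replicates; bars are exact 95% counting intervals and the grey area is the windows. All 3 lists are lowest at 0 to 50 bp (51.9 to 67.9 per Mb) and highest beyond 2000 bp (317 to 347 per Mb).

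Base composition moved with this result, and the ratio was nearer to 1 when bases of like GC were compared. The windows had a mean GC content of 30.01%, against 35.7% in the rest of the chromosome, and summit density climbed with GC in both. Within 6 strata of local GC the pooled ratio of windows to rest was 0.349 below 25% GC, 0.451, 0.389 and 0.564 in the next 3 strata, 0.686 at 40 to 45% and 0.668 from 45% up. When the rest was given the GC make-up of the windows, the ratio was 0.556 in replicate 1, 0.621 in replicate 2 and 0.521 in the pooled list. At 40 to 45% GC the replicates differed, with a ratio of 0.567 in replicate 1 and 0.915 (0.717 to 1.15) in replicate 2, whose interval includes equal densities. Measures of repeated sequence moved the pooled ratio, 0.306 over all bases, in different directions. Words of 32 bases found once in the nuclear genome began at 96.9% of window bases and 88.1% of the rest, and over bases with such words alone within 50 bp the pooled ratio was 0.268. Soft-masked sequence took up 44.3% of the windows and 36.4% of the rest, and without it the pooled ratio was 0.332.

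**Figure D3:**
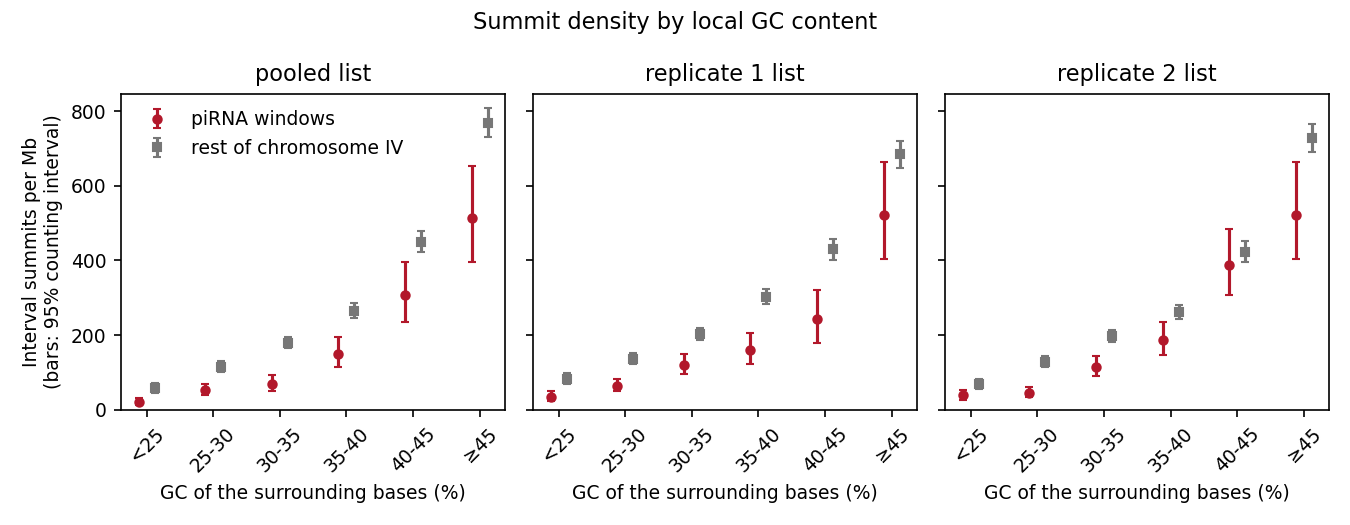
Interval summits per Mb in the piRNA windows and in the rest of chromosome IV by GC content of the surrounding 101 bp, one panel per list; bars are exact 95% counting intervals. Density climbs with GC in both, and the windows lie below the rest in every stratum of each list, with overlapping bars at 40 to 45% in replicate 2 and from 45% up in replicate 1.

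The intervals that did reach piRNA windows were somewhat weaker than those in the rest of chromosome IV in each full list. In replicate 1 their median signal was 22.7 (median rank 16450.5), against 23.6 (14685.5) in the rest. In replicate 2 it was 23.6 (median rank 18430), against 25.8 (14499). The pooled medians were 41.2 and 43.2, but the highest pooled values differed more, with 112.6 in the windows and 229.9 in the rest. Among the 1000 strongest pooled intervals the density ratio was 0.108, among the 5000 strongest 0.269, and over all 30000 intervals 0.306. The ratio was lowest at the strong end of the list, though there it rests on 4 summits in the windows.

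Matched by summit, window intervals were found in both replicates at a share near that elsewhere. The genes with an interval in each replicate list, another measure, overlapped less than they did over all genes. Of the 303 pooled summits in the windows, 110 had a summit within 200 bp in both replicates (36.3%, 30.9 to 42.0%), against 1685 of 4241 in the rest (39.7%, 38.3 to 41.2%). Matching within 50 bp gave 18.8% and 18.5%, and matching by an overlap of at least 1 bp gave 44.6% and 50.9%. At the summits matched within 200 bp the median signal was 24.7 in replicate 1 and 26.8 in replicate 2 for the windows, and 26.6 and 29.0 for the rest. Spearman's rho between the replicates' signals was 0.18 over the 110 window summits and 0.31 over the 1685 others, as a description across summits of the same 2 libraries. By the same 200 bp match, 179 (37.0%) of the 484 piRNA genes with a pooled interval were matched in both replicates. The share over all genes for that match is not given here. Without regard to the pooled list or to matching of summits, 182 piRNA genes (1.24%) had an interval in both replicates, against 7.13% of all genes. These 182 are 29.6% of those in replicate 1 and 29.5% of those in replicate 2. Over all genes the shared part was larger, with 3345 in both replicates, of 6854 in replicate 1 and 7096 in replicate 2. In all, 1105 piRNA genes (7.51%) had an interval in at least 1 of the 3 full lists, against 23.6% of all genes, and 13609 (92.5%) had none.

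**Figure D4:**
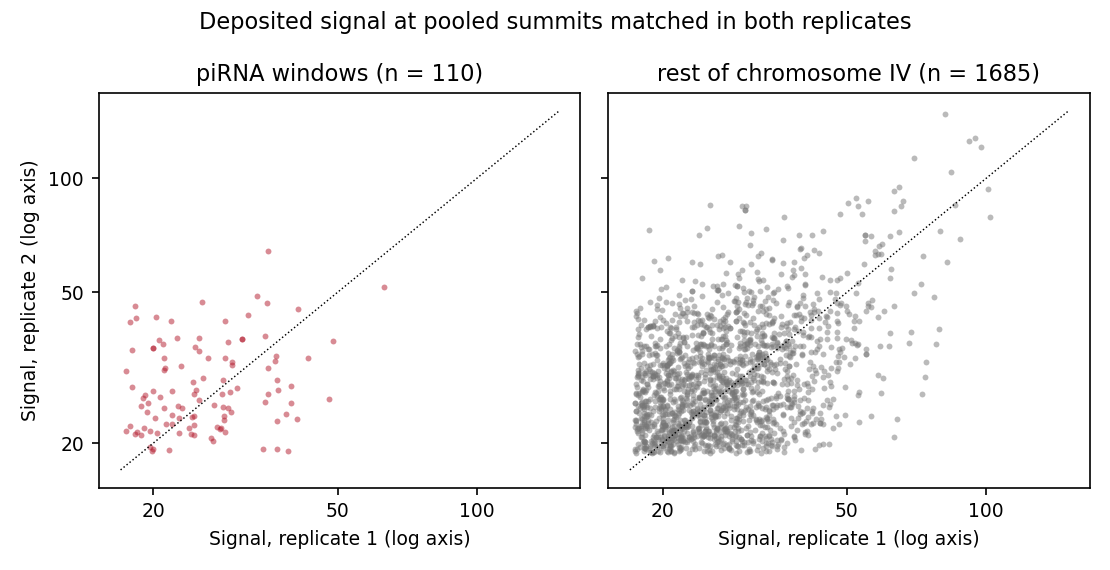
Deposited signal of replicate 1 and replicate 2 at pooled summits matched within 200 bp in both, for the piRNA windows and for the rest of chromosome IV, on log axes with a dotted line of equal signal. The 110 window summits reach 63.1 in replicate 1 and 64.2 in replicate 2, with medians of 24.7 and 26.8, and the 1685 others, with medians of 26.6 and 29.0, extend further to the upper right.

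Most window summits had a piRNA as their nearest start, as follows from the windows being made of piRNA starts, and the 5 nearest to a tRNA start had the highest median signal. Of the 303 pooled summits, 274 (90.4%) were nearest to a piRNA start. A tRNA, snoRNA or protein-coding start was nearest for 17 (5.61%), although bases nearest to such starts make up 2.49% of the windows. The replicates gave 19 (5.34%) and 28 (7.45%) such summits. The 5 nearest to a tRNA start had a median signal of 86.5 and stood a median of 26 bp before it, the 11 nearest to a coding start had a median of 44.95, and the 274 nearest to a piRNA start had a median of 40.5 and a highest value of 86.2. Per length, window sequence nearest to a tRNA start held 2125 summits per Mb, that nearest to a coding start 138 and that nearest to a piRNA start 85.9. Counting by gene, 7 (12.7%) of the 55 piRNA genes within 500 bp of a tRNA start had a pooled interval, against 477 (3.25%) of the other 14659, and in each replicate 9 of the 55 had one (16.4%).

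From the neighbours' side, tRNA and coding genes of the clusters both had lower full-list shares where a piRNA start lay nearby. The tRNA genes were few, and in the thresholded list their order was the other way. Among tRNA genes in the clusters, 4 (33.3%) of the 12 with a piRNA start within 250 bp had a thresholded summit, against 7 (22.6%) of the 31 without, and the exact intervals of these shares overlapped widely. Each replicate gave 7 of the 12 (58.3%) an interval, and 22 (70.97%, replicate 1) and 23 (74.2%, replicate 2) of the 31. The exact intervals overlapped here too, so no difference between tRNA genes with and without a piRNA start nearby is shown. Among protein-coding genes in the clusters, an interval lay near 20 (6.13%) of the 326 with a piRNA start within 250 bp in replicate 1 and 21 (6.44%) in replicate 2, against 103 (14.3%) and 123 (17.1%) of the 721 without. The exact intervals of the coding shares did not overlap in either replicate. Mean GC content at these coding starts was 34.1% with a piRNA start nearby and 35.9% without, and its part in this difference was not tested.

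The 5 strongest pooled intervals below the thresholded list that had a piRNA as the nearest start were spread over both clusters and the space between. The highest was at 21ur-14537 in cluster 1, with 49.0 in replicate 1, 37.3 in replicate 2 and 86.2 in the pooled list (rank 950), its summit 136 bp after the start and its nearest gene of another kind, C01B10.11, 1117 bp off. At 21ur-14659, a piRNA gene inside an exon of gstk-2, a gene named for glutathione S-transferase kappa, the signal was 47.9 in replicate 1, 26.1 in replicate 2 and 80.4 pooled. Both of these intervals were stronger in replicate 1. At 21ur-12556, outside the clusters in an exon of memi-3, the signal was 41.0 in replicate 1, 45.2 in replicate 2 and 78.9 pooled. At 21ur-2149, in an intron of Y64G10A.7, replicate 2 gave 33.5 and the pooled list 75.3, with the pooled summit 239 bp after the start. Replicate 1 had no summit within 250 bp of this start, but had a summit of signal 43.2 within 200 bp of the pooled summit. At 21ur-13782, in an intron of F56D5.6 outside the clusters, it was 34.8 in replicate 1, 38.4 in replicate 2 and 74.4 pooled. Of the 5 genes, 1 has the exact core word. Inside coding genes lay 4 of the 5, of which 3 ran in the direction of the host gene and 1, 21ur-12556, against it. Among all 484 piRNA genes with a pooled interval, 53 lay in exons and 260 in introns of coding genes. Among all 14714 members, 522 and 5019 did. The share in the host's direction over all members is not given here.

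Among the members themselves, the share with an interval varied with where they lay. Over the replicates, 10.4 ± 0.406% (SD, n = 2) of the 522 piRNA genes in exons of protein-coding genes had one, 6.14 ± 0.592% of the 5019 in introns and 2.76 ± 0.324% of the 9173 outside coding genes. The mean GC content of the 101 bp at the start was 33.2% for the exonic genes but 28.3% for the intronic and 28.2% for the others, and the part of GC in these differences was not tested. The intronic genes stood above those outside coding genes in cluster 2, with 202 (5.70%) of 3541 intronic genes in replicate 1 and 235 (6.64%) in replicate 2, against 200 (2.59%) and 144 (1.87%) of 7715 outside coding genes. In cluster 1 the intronic genes had 5.74% and 6.10% and the genes outside coding genes 4.93% and 5.76%, with overlapping intervals. Crowding went the other way: of genes with more than 5 other piRNA starts within 1000 bp 3.32 ± 0.0687% had an interval, and of genes with none 8.85 ± 0.452%, where mean GC was 28.2% and 31.2%. Cluster 1 stood at 5.91 ± 0.372%, cluster 2 at 3.63 ± 0.135% and the scattered genes at 9 ± 2.36%.

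**Figure D5:**
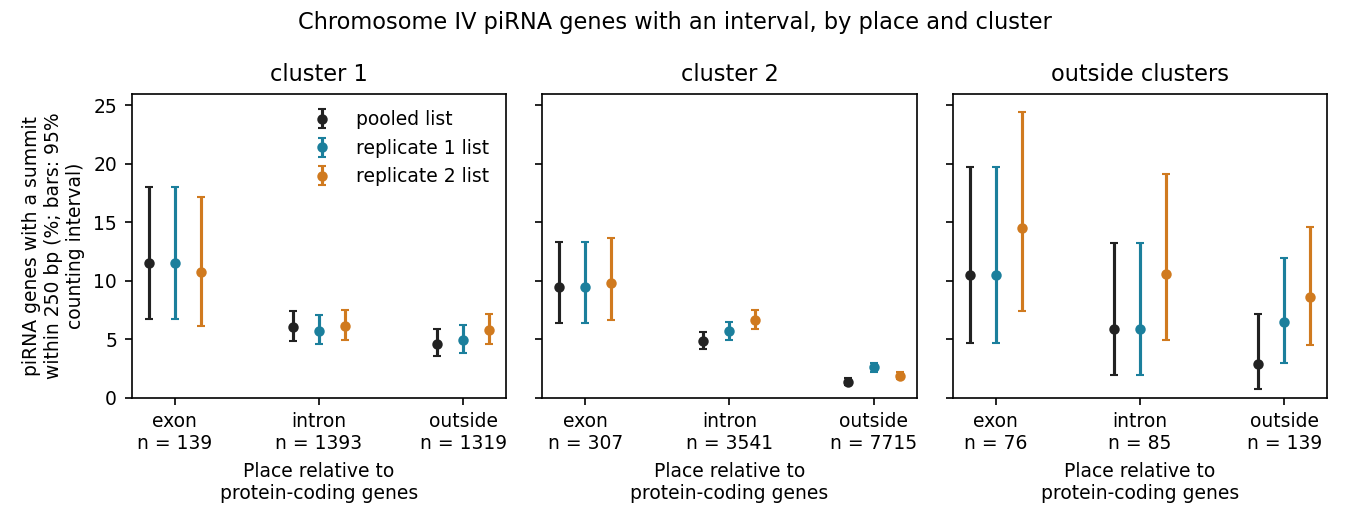
Share of chromosome IV piRNA genes with an interval summit within 250 bp by place relative to protein-coding genes, one panel per cluster and one for the scattered genes; bars are exact 95% binomial intervals. In cluster 2 the genes outside coding genes lie lowest in all 3 lists (1.37 to 2.59%), while in cluster 1 intronic genes and genes outside coding genes overlap.

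Summits showed no preferred side of the nearest piRNA start, and the share of genes with an interval differed little with the core word. Of 302 pooled summits off the start itself, 145 lay upstream (48.0%, 42.3 to 53.8%). Of the 229 at the 12713 piRNA starts with no start of another kind of gene within 500 bp, 115 did (50.2%). Other piRNA starts were not excluded, and 10290 of the piRNA genes had more than 5 of them within 1000 bp. A side could therefore be told for the nearest piRNA start only, and a preference could be blurred by its neighbours. With the exact core word, 4.49 ± 0.0554% of genes had an interval over the replicates, and without it 4.02 ± 0.00736%. This difference was larger than the spread between the replicates, but in each replicate the exact intervals of the shares overlapped. In replicate 1 they were 3.90 to 5.05% with the word and 3.64 to 4.44% without it. In the pooled list the shares were 188 (3.68%, 3.18 to 4.24%) of 5105 genes with the word and 296 (3.08%, 2.74 to 3.45%) of 9609 without it, and their intervals overlapped. With up to 1 mismatch allowed the share over the replicates was 4.25 ± 0.0803% with the word and 3.96 ± 0.217% without it, while in the pooled list the order turned, to 3.25% with the word and 3.43% without it. Strand made a smaller difference than the replicates did, with 4.12 ± 0.223% on the forward and 4.25 ± 0.248% on the reverse strand.

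The protein-coding genes of the piRNA pathway were taken as a list of 33 names, of which 32 were found in the annotation. None had a thresholded summit within 250 bp of its start, and 4 (12.5%) had a pooled summit, against 16.6% of the 19973 protein-coding genes. Of 7 genes for transcription of piRNAs, 1 had an interval, namely unc-130, which encodes a forkhead factor, with 20.7 in replicate 1, 27.9 in replicate 2 and 52.0 pooled. No interval of the pooled list lay at prde-1, snpc-4, tofu-4 or tofu-5. Of 10 genes for processing, such as parn-1 for 3′ trimming and henn-1 for 3′ methylation, 0 had a pooled interval. Of 15 genes for effectors, 3 had one. The highest was at znfx-1, a helicase of inherited silencing, with 46.8 in replicate 1, 25.5 in replicate 2 and 74.7 pooled. At prg-1, the gene of the Piwi protein itself, replicate 1 had no summit, replicate 2 gave 51.7 and the pooled list 67.5. At mut-2 (rde-3), a nucleotidyltransferase, the signal was 31.5, 27.7 and 60.1 in replicate 1, replicate 2 and the pooled list.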

How the data were processed

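Per the labels, the libraries were made from sonicated chromatin precipitated with anti-GFP and the files are in assembly ce11. Text files deposited with the samples name the inputs of each list: the alignment of that replicate and 1 control used for both, or, for the pooled list, both alignments and this control. The thresholded list was cut from these by irreproducible discovery rate. The control was not analysed here. Not given in the sources used here, moreover, were aligner, caller, settings, rate limit and read totals.

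The authors deposited a signal value per interval, of a scale that no label or header names. It served to rank intervals inside each list, and, unscaled, to set the replicates side by side at matched summits. Their deposited −log10 q-value was not used. Summits came from the point-source offset of each interval. Depth is unknown.

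Genes came from Ensembl release 115 and sequence and symbols from RefSeq, both WBcel235, the sequence of ce11, with positions counted from 1. A cluster was a run of 100 kb bins with at least 10 piRNA starts, gaps of up to 5 bins and at least 1000 genes. GC content was taken over 101 bp. Shares have exact Clopper-Pearson intervals and density ratios exact conditional binomial intervals, both 95%. Means ± SD are over the replicate lists. The named genes were the piRNA gene nearest to each thresholded summit within 250 bp, those at the 5 strongest other pooled intervals whose nearest start was a piRNA, the highest-scoring piRNA gene of each replicate, and pathway genes with an interval; all other genes were picked with their values in view. The members, lists and alternatives were chosen with earlier results of these data known. Scripts used Python 3.11.15, numpy 2.4.6, pandas 2.3.3, scipy 1.17.1 and matplotlib 3.10.9, and were tested on simulated data.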

Additional observations from a re-analysis of the deposited data

How the results depend on the processing

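With a reach of 100 bp 1 piRNA gene had a thresholded summit, and with 500 bp 18 had one, at a density ratio of 0.450. Among the 250 strongest thresholded peaks, and among those whose nearest start was not a tRNA, snoRNA or protein-coding start, 0 genes had one (ratio 0 in both). The 501 strongest intervals of 1 replicate in place of the thresholded list gave 1 to 3 genes and ratios of 0.0549 to 0.113. The pooled density ratio was below 1 under every setting run. It was 0.233 at 100 bp, 0.392 at 500 bp, 0.269 for the 5000 strongest intervals, 0.329 against the rest of the clusters, and 0.355 to 0.383 in the lists of 1 replicate. Settings chosen after seeing the data gave 0.521 within GC strata, 0.268 over bases with unique words and 0.332 without soft-masked bases. Matching within 50 bp left 98 of 179 genes with a pooled interval found in both replicates. The difference in pooled share between genes with and without the core word was 0.602 percentage points for the exact word and -0.186 with up to 1 mismatch, and the intervals of the shares overlapped in both. Depth is unknown, so a gene without an interval cannot be called unbound.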

Other observations

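Of the 72 thresholded summits on chromosome IV, 22 lay in the piRNA clusters, at a median of 583 bp from the nearest piRNA start. A tRNA start was nearest for 10 of them, a piRNA start for 5, a protein-coding start for 3 and a snoRNA start for 2. The 5 with a piRNA as the nearest start all stood beyond the 250 bp limit, at 295 bp from 21ur-10291, 300 bp from 21ur-10153, 509 bp from 21ur-10279, 1098 bp from 21ur-11034 and 1122 bp from 21ur-3677. The strongest of them, near 21ur-10291, had a pooled signal of 162.1 and rank 95. These genes were chosen after their values were seen.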
